A study of Zea mays with 9 samples.

Results

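In all, 3 genes of fatty acid synthesis and elongation were followed in root apices of maize seedlings, out of 45260 genes in the deposited table. They were taken by identifier from the KEGG pathway lists that the study made for its nitrate-responsive genes. In those lists, Zm00001d005148 carries the orthology of acyl-ACP thioesterase B (here FATB), Zm00001d045295 that of a long-chain acyl-CoA synthetase (here LACS), and Zm00001d048953 that of a 3-ketoacyl-CoA synthase (here KCS). FATB and LACS stood in the fatty acid biosynthesis list and KCS in the fatty acid elongation list. The study had sorted these genes by their values in all the conditions before it made the lists. The biosynthesis list comes from its group of genes lowered by nitrate and restored by cPTIO. The elongation list comes from the group lowered by nitrate that the study calls independent of nitric oxide. The contrast between FATB or LACS and KCS under cPTIO thus follows from that choice and is given as a description. That group name does not mean an unchanged value, since KCS was 2.77-fold higher with cPTIO than with nitrate alone. All 3 identifiers were found in the table. The names follow from the orthology alone, since the file pairs no identifier with a name.

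Plants build fatty acids in the plastid, on acyl carrier protein (ACP). Thioesterases of the FATB class release the finished chains, mainly saturated ones such as palmitate, from ACP. Long-chain acyl-CoA synthetases then join the free acid to coenzyme A, the form in which it is used for membrane and storage lipids, for further elongation, or for breakdown in peroxisomes. 3-Ketoacyl-CoA synthases are the condensing enzymes of the elongase in the endoplasmic reticulum and determine which very-long-chain acids are made. In roots these long chains enter suberin, waxes and sphingolipids.

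Primary root apices of the inbred line B73 were compared in 3 conditions. Seedlings germinated in the dark were first kept without nitrogen, and then spent 24 h in a solution without nitrogen (-N), in a solution with 1 mM nitrate (+NO3-), or in 1 mM nitrate with 1 mM cPTIO, a compound that scavenges nitric oxide (+NO3- + cPTIO). The labels list 3 libraries per condition, each from pooled seedlings of the same genotype, of which 2 were kept for +NO3- + cPTIO after quality filtering. The labels mark the -N and +NO3- libraries as re-analysed, which they do not do for the cPTIO libraries. Whether all libraries were grown and sequenced together is not given in the sources used here, so an effect of cPTIO and a difference between experiments cannot be told apart. RPKM here is reads scaled to transcript length and, by quartile normalization, between libraries. The table holds a single RPKM per gene and condition, pooled by the authors over the libraries. No value below therefore has a replicate check, an error or a test, and the file does not show the depth behind a value. The study itself had called its nitrate-responsive genes by a test on the libraries, at over 2-fold and with a limit on the false discovery rate. The outcome of that test for single genes is not reported here. RPKM was at least 1 for 20324 genes in -N, 20852 in +NO3- and 20254 in +NO3- + cPTIO.

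All 3 genes had their lowest level in +NO3-. FATB and LACS stood above their -N level when the scavenger was added to nitrate, whereas KCS stood between its +NO3- and -N levels. Against -N, the cPTIO level was farthest above for LACS, at 2.90-fold, and against nitrate alone the levels of FATB and LACS were 6.39-fold and 6.02-fold higher.

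**Figure D1:**
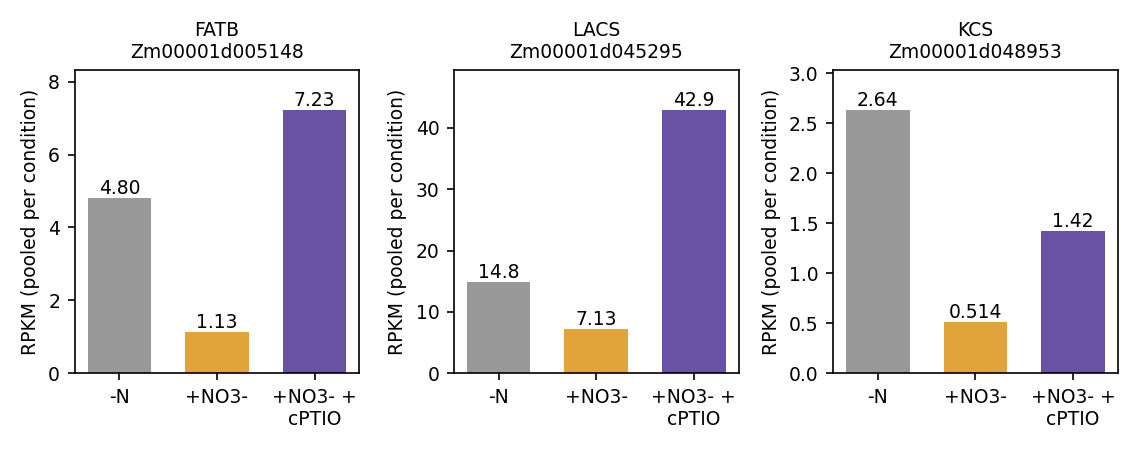
RPKM (vertical axis, linear, starting at 0 and scaled separately for each gene) of FATB, LACS and KCS in -N, +NO3- and +NO3- + cPTIO (horizontal axis). Each bar is the authors' pooled value of a condition, without error, and in every panel the +NO3- bar is the lowest, at 1.13, 7.13 and 0.514 RPKM.

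FATB, the thioesterase that frees acyl chains from ACP, lies on chromosome 2 of AGPv4 from 161094503 to 161096484. Its RPKM was 4.80 in -N, 1.13 in +NO3- and 7.23 in +NO3- + cPTIO. The nitrate value was thus 4.24-fold below that without nitrogen, a log2 ratio of -2.08. The value with cPTIO was 6.39-fold above that with nitrate alone (log2 ratio of 2.68) and 1.51-fold above -N (0.59), so FATB passed the 2-fold limit used here in both comparisons with +NO3- and stayed within it against -N. Ranked among the 21890 genes that reached 1 RPKM in any condition, FATB stood at percentile 31.1 in -N, 6.43 in +NO3- and 39.2 in +NO3- + cPTIO. It was a gene of modest level in each condition, and close to the bottom of the expressed genes with nitrate alone.

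LACS, which activates free fatty acids with coenzyme A, lies on chromosome 9 from 18154085 to 18160890. The study's lists also placed it under fatty acid degradation and the peroxisome. Its RPKM was 14.8 in -N, 7.13 in +NO3- and 42.9 in +NO3- + cPTIO. It was the most abundant of the 3 genes per length in each condition. Its nitrate ratio was the smallest of the 3, 2.08-fold below -N (log2 ratio of -1.06), close to the 2-fold limit. The log2 ratio of +NO3- + cPTIO was 2.59 against +NO3- and 1.53 against -N. Among expressed genes LACS stood at percentile 58.0 in -N, 38.2 in +NO3- and 83.6 with cPTIO. It was the only member over 2-fold from -N under cPTIO.

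KCS, the condensing enzyme of fatty acid elongation, lies on chromosome 4 from 10603314 to 10607553. Its RPKM was 2.64 in -N, 0.514 in +NO3- and 1.42 in +NO3- + cPTIO. Its nitrate value was 5.13-fold below -N (log2 ratio of -2.36), the largest difference of the 3 in the values as deposited. With 1 RPKM added to each value, that of FATB was larger, at -1.44 against -1.26. With cPTIO the value was 2.77-fold above that with nitrate alone (1.47), yet 1.85-fold below -N (-0.89). KCS was the least abundant member in each condition, at percentile 1.96 in +NO3-, and its ratios rest on low values. After addition of 1 RPKM to each value, its cPTIO to +NO3- log2 ratio was 0.68, within the 2-fold limit.

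The position of the cPTIO value between the other 2 conditions was expressed as the remaining share of the nitrate response, the log2 ratio of +NO3- + cPTIO to -N divided by that of +NO3- to -N. It is 0 at the -N level, 1 at the +NO3- level and negative when the cPTIO value lies on the other side of -N. The share was 0.38 for KCS, -0.28 for FATB and -1.45 for LACS. The study had sorted the genes by these same values, so the contrast of KCS with FATB and LACS follows from that choice. The shares, and the ratios to KCS below, are a description. The ratios between the genes therefore differed by condition. The RPKM of LACS was 5.62 times that of KCS in -N, 13.9 times in +NO3- and 30.1 times in +NO3- + cPTIO, and that of FATB was 1.82 times that of KCS in -N and 5.07 times in +NO3- + cPTIO. LACS exceeded FATB by 3.09-fold in -N, 6.30-fold in +NO3- and 5.94-fold in +NO3- + cPTIO, so this ratio differed little between the nitrate conditions. The order LACS, FATB, KCS was the same in each condition, but without replicate values it is not known which of these levels differ beyond their spread.

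The members were set beside every gene that reached 1 RPKM in either condition of a comparison. Between +NO3- and -N, 7.78% of 21290 genes were past 2-fold, 5.24% higher and 2.54% lower with nitrate. All 3 members were among the latter. The study had listed them because they responded to nitrate in these same libraries, so nothing can be read from that count. Ratios below that of KCS, genes listed at 0 with nitrate included, were found for 117 genes, below that of FATB for 150 genes, and below that of LACS for 509 genes.

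Between +NO3- + cPTIO and +NO3-, 19.8% of 21617 genes were past 2-fold, 7.08% higher and 12.7% lower with the scavenger. All 3 members were higher by over 2-fold, FATB at percentile 98.6 of the ratios, LACS at 98.5 and KCS at 95.9. This comparison shares the +NO3- values with the preceding one, in which the members had been chosen as low, and its cPTIO values took part in the study's sorting, so nothing is read from the count. Between +NO3- + cPTIO and -N, 17.5% of 21312 genes were past 2-fold, 8.33% higher and 9.21% lower with cPTIO. There, LACS was higher and FATB and KCS stayed within 2-fold. LACS lay at percentile 95.1, FATB at 84.7 and KCS at 11.0. The values of both conditions took part in the study's sorting too, so these positions are a description. The median log2 ratio of all genes above 0 was 0.04, -0.07 and -0.03 in the 3 comparisons in the order given.

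**Figure D2:**
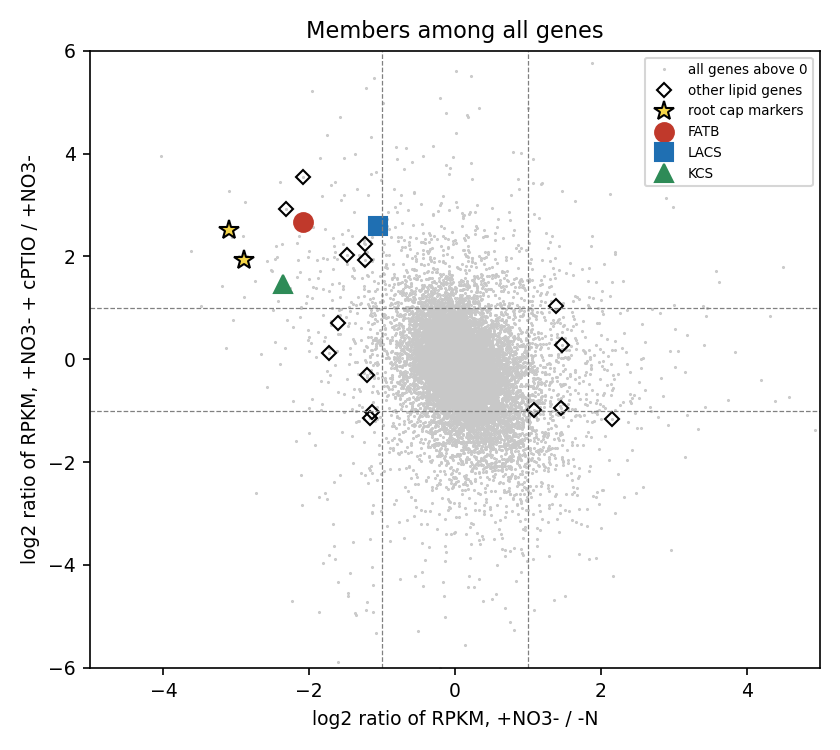
Log2 ratio of +NO3- + cPTIO to +NO3- (vertical axis) against that of +NO3- to -N (horizontal axis) for 20323 genes (grey points, 24 further genes lie outside the axes), the 3 members, the root cap markers and the other lipid genes. The grey points are genes that passed the RPKM minimum in each comparison and were above 0 in each condition. Dashed lines mark 2-fold, and the axes share the +NO3- value, which tilts the cloud. The members lie at the upper left, with log2 ratios of -2.36 to -1.06 on the horizontal axis and 1.47 to 2.68 on the vertical axis.

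A root apex holds several tissues, and in pooled apices fewer cells of a type and less RNA per cell cannot be told apart. The study names 2 root cap genes, both from the group that also gave FATB and LACS. A lower value with nitrate and a higher one again with cPTIO were thus fixed by that choice. Zm00001d045420, called root cap-specific protein, had an RPKM of 44.7 in -N, 6.04 in +NO3- and 23.0 in +NO3- + cPTIO. Bearskin 2 (Zm00001d003583), known from Arabidopsis as a NAC regulator of root cap maturation, had 1.77, 0.207 and 1.19. Both were lower with nitrate and higher again with cPTIO, and summed over both genes the RPKM was 46.5, 6.25 and 24.2. Under cPTIO both stood below their -N level (log2 ratios of -0.96 and -0.57), on the same side as KCS (-0.89) and on the opposite side from FATB and LACS. The part of root cap tissue in the members' values was not tested. The root hair gene roothairless6 (Zm00001d030121) had another course, with 7.90, 2.39 and 0.170 RPKM. The study names it from its nitrate-lowered groups that cPTIO did not restore, so a course unlike that of the root cap genes follows from that choice. For green tissue, 4 photosynthesis genes of the study's nitrate-raised groups were taken. That their +NO3- values exceeded those in -N was therefore fixed, and their cPTIO values took part in the sorting. These genes are thus a description and no check of tissue content. They summed to 64.8, 154 and 118 RPKM, most of it from Zm00001d034345 with 52.3, 110 and 101 RPKM. Zm00001d042178 had 2.46, 5.54 and 0.720 RPKM, and Zm00001d023713 was listed at 0 in -N and +NO3- + cPTIO.

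The study's KEGG lists place 15 other genes in lipid metabolism. They too were chosen as nitrate-responsive and sorted by their cPTIO values in these libraries, so their counts are a description. In the comparison of +NO3- with -N, 9 of the 13 that passed the RPKM minimum were lower by over 2-fold and 4 were higher, where 2.54% and 5.24% of all genes were. Between +NO3- + cPTIO and +NO3-, 14 passed the minimum, of which 6 were over 2-fold higher, 3 were over 2-fold lower and 5 were within 2-fold, with a median log2 ratio of 0.21. Of all genes, 7.08% were higher and 12.7% lower, with a median of -0.07. Against -N, 14 passed the minimum and 4 were higher, 4 lower and 6 within 2-fold, with a median of 0.57, beside 8.33% higher, 9.21% lower and a median of -0.03 over all genes. Under the scavenger the lipid genes thus had several courses, and so had the members.

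Of the lipid genes, 5 had the order of FATB and LACS, lowest in +NO3- and highest in +NO3- + cPTIO. 12-Oxophytodienoic acid reductase (Zm00001d037182), an enzyme of the pathway that yields jasmonate from linolenic acid, had an RPKM of 8.23 in -N, 1.94 in +NO3- and 22.8 in +NO3- + cPTIO. It exceeded its +NO3- level by 11.7-fold and its -N level by 2.77-fold. An alpha-dioxygenase (Zm00001d035854), which oxidizes free fatty acids, had 2.97, 0.595 and 4.50 RPKM. Phospholipase D (Zm00001d029397), which releases phosphatidic acid from membrane lipids, had 4.81 RPKM in -N, 1.73 in +NO3- and 7.00 in +NO3- + cPTIO, and a phosphatidate phosphatase (Zm00001d011638) had 34.9, 14.8 and 56.3 RPKM. Like FATB, the last 3 genes were within 2-fold of -N under cPTIO, at 1.52-fold, 1.46-fold and 1.61-fold above it. Zm00001d027995 of the degradation list, annotated as S-(hydroxymethyl)glutathione dehydrogenase / alcohol dehydrogenase, had 8.87, 3.76 and 17.9 RPKM, and stood 2.02-fold above -N.

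Another 5 lipid genes were lower with nitrate and stood below their -N level under cPTIO, as KCS did. Closest to KCS among these was the aldehyde dehydrogenase of the degradation list (Zm00001d017418), with 0.953, 0.313 and 0.509 RPKM, below the minimum in each condition. Both genes annotated as omega-hydroxypalmitate O-feruloyl transferase, which adds ferulate to the aliphatic part of suberin, were lower with nitrate and over 2-fold below -N with cPTIO. Zm00001d012274 had an RPKM of 21.2 in -N, 9.18 in +NO3- and 7.44 in +NO3- + cPTIO. Zm00001d042723 had 17.1, 7.75 and 3.82. Unlike KCS, neither was higher with cPTIO than with nitrate alone, and the latter was 2.02-fold lower. Sterol 14alpha-demethylase (Zm00001d049299), a step of sterol synthesis, had 7.99, 2.42 and 2.65 RPKM. An alcohol dehydrogenase of the degradation list (Zm00001d030348) had 37.7, 16.9 and 7.69 RPKM.

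The remaining 5 lipid genes were higher with nitrate than without nitrogen, opposite to the members. A lipoxygenase (Zm00001d041204), which oxidizes linoleic and linolenic acid, had 7.24 RPKM in -N, 20.0 in +NO3- and 24.4 in +NO3- + cPTIO. The NADP-dependent alcohol dehydrogenase (Zm00001d042868) had 0.306, 0.796 and 1.63 RPKM. These were the only ones of the 5 that stood higher with cPTIO than with nitrate alone. A peroxygenase (Zm00001d030670) had 2.91, 7.99 and 4.13 RPKM, phosphoethanolamine N-methyltransferase (Zm00001d038891) had 1.67, 3.52 and 1.79 RPKM, and the other phosphatidate phosphatase (Zm00001d043947) had 0.860, 3.83 and 1.71 RPKM. The phosphatidate phosphatases therefore had opposite courses in each comparison with +NO3-.

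**Figure D3:**
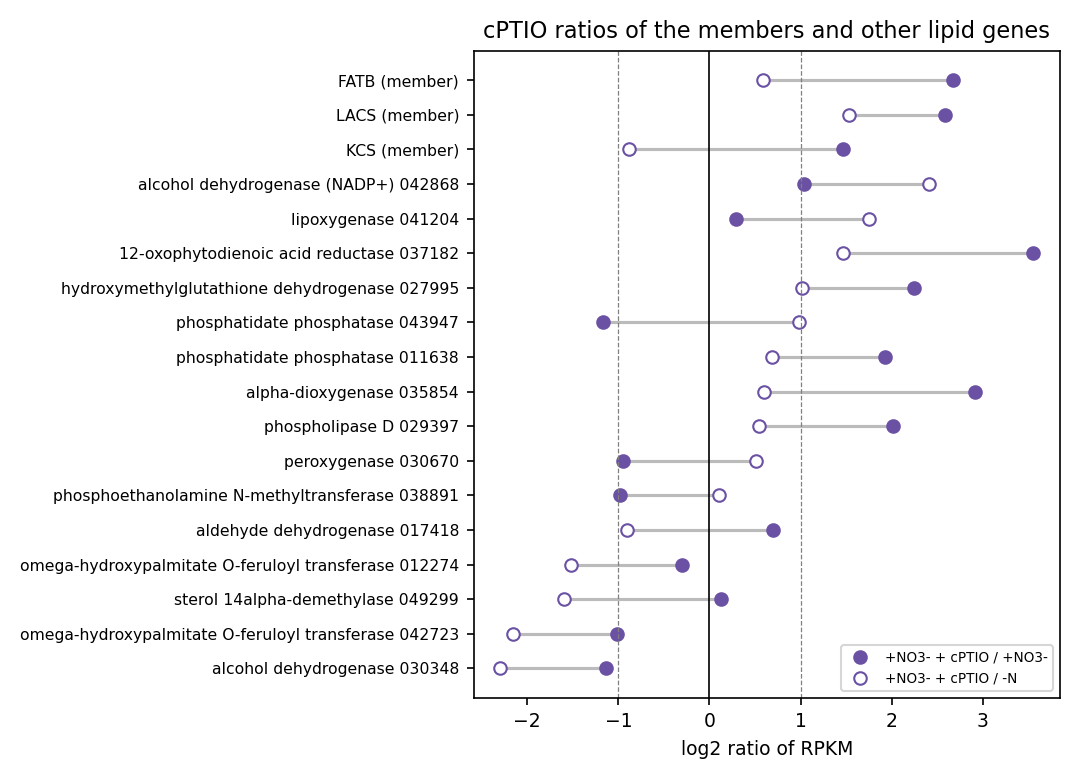
Log2 ratios (horizontal axis) of +NO3- + cPTIO to +NO3- (filled points) and to -N (open points) for the 3 members and the 15 other lipid genes, ordered below the members by the open points, with the last 6 digits of each identifier. Dashed lines mark 2-fold. FATB and LACS have both points right of 0, and KCS has them on either side, at 1.47 and -0.89.

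The members lie on different chromosomes, and none overlapped the 2 flanking genes on either side. Beside FATB, the nearest expressed gene to the right, Zm00001d005149, lay 45.8 kb away and had 1.98, 2.13 and 2.46 RPKM in -N, +NO3- and +NO3- + cPTIO. To its left, Zm00001d005147 was listed at 0 in each condition and Zm00001d005146 had the reverse course of FATB, with 11.0, 24.0 and 7.76 RPKM. Beside LACS, Zm00001d045296 at 4.61 kb had 2.16, 2.61 and 1.90 RPKM and Zm00001d045294 had 47.4, 65.4 and 75.8 RPKM, none of these ratios past 2-fold. Zm00001d045293 shared the signs of LACS in the comparisons with +NO3-, at levels of at most 0.0487 RPKM. Beside KCS, Zm00001d048954 at 10.6 kb had 76.3, 46.8 and 52.2 RPKM, and Zm00001d048950 at 48.6 kb had 1.33, 4.14 and 35.1 RPKM, with a log2 ratio of 3.08 for cPTIO against +NO3-. Among the flanking genes that reached 1 RPKM, none was over 2-fold lower with nitrate, as its member was.

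**Figure D4:**
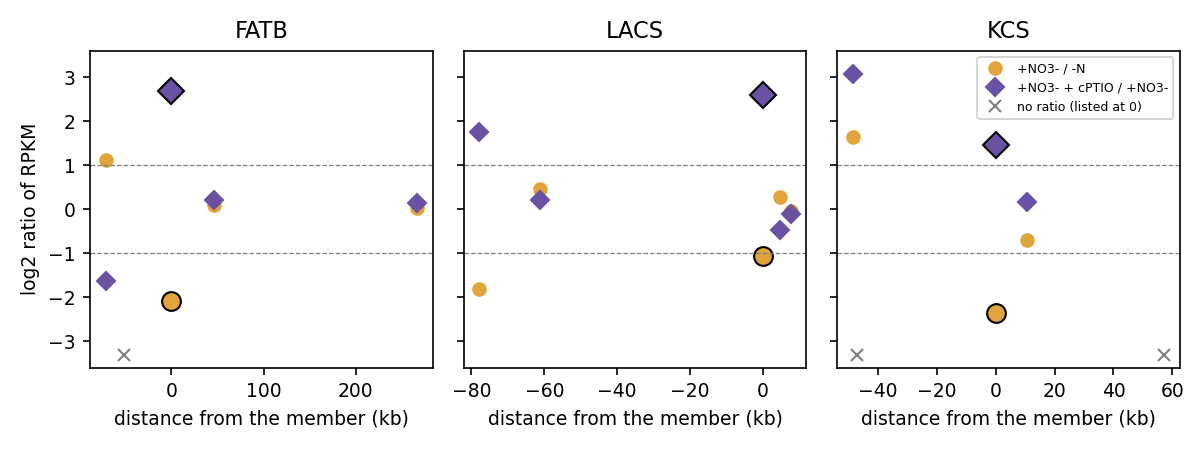
Log2 ratio (vertical axis) of +NO3- to -N (circles) and of +NO3- + cPTIO to +NO3- (diamonds) for each member, drawn large at 0 with a black edge, and its 2 flanking genes on each side by distance in kb (horizontal axis, scaled separately). Crosses mark flanking genes without a ratio because they are listed at 0, and dashed lines mark 2-fold. The member's circle is the lowest in the FATB and KCS panels, at -2.08 and -2.36, while in the LACS panel Zm00001d045293, at under 0.05 RPKM, lies lower.

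Genes with the most similar course were sought by the distance between the pairs of log2 ratios of +NO3- to -N and of +NO3- + cPTIO to +NO3-, over the 21577 other genes that were above 0 in all 3 conditions and reached 1 RPKM in any. Nearest to FATB was Zm00001d002977 (distance 0.03; 0.789, 0.188 and 1.17 RPKM), followed by Zm00001d040990 (0.11; 0.968, 0.245 and 1.51 RPKM). Nearest to LACS were Zm00001d030037 (0.09; 0.514, 0.259 and 1.496 RPKM) and Zm00001d044157 (0.11; 23.6, 12.2 and 72.7 RPKM). Nearest to KCS were Zm00001d050140 (0.12; 4.31, 0.894 and 2.34 RPKM) and Zm00001d027428 (0.13; 3.79, 0.698 and 1.80 RPKM). Both neighbours of FATB, and Zm00001d030037 of LACS, reached 1 RPKM only with cPTIO, where they were highest. Their likeness rests on +NO3- values of 0.188 to 0.259 RPKM, so nothing further is read from it. Within a distance of 0.25 lay 3 genes for FATB, 9 for LACS and 6 for KCS. With 3 values per gene, the likeness rests on 2 ratios, and neither other member was among these neighbours.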

How the data were processed

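Root apices of 3 conditions were sequenced in 9 libraries. Per the labels and the study's methods, the authors used Trimmomatic 0.33 for trimming and TopHat 2.0.13 for mapping to B73 AGPv4, and computed RPKM values with Cuffdiff (Cufflinks 2.2.1), using quartile normalization and multi-read correction. They deposited 1 RPKM per gene and condition, in which reads shared with related genes are divided by estimate, so single members of gene families are uncertain to that extent. Of the cPTIO libraries, 2 were kept. Reads per gene are not given beside the RPKM values.

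Ratios were computed without a pseudocount (Python 3.11.15, pandas 2.3.3). Counts used genes that reached 1 RPKM in either condition and a limit of 2-fold, genes listed at 0 in 1 condition included. No test was possible with 1 value per condition. The counting was tested on simulated data. Named are the members, the lipid and marker lists, 2 flanking genes on each side and the 2 genes nearest in course per member. Members and lists were chosen with earlier results of these data known. Alternatives were pseudocounts, rescaling, other RPKM minimums and a limit of 1.5-fold. Of 43484 Zm00001d identifiers, 0 matched the reference table of gene names, so families of fatty acid genes could not be listed and no sequences are shown.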

Additional observations from a re-analysis of the deposited data

How the results depend on the processing

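No paired analysis was possible because the deposited table holds 1 pooled value per condition, and for the same reason no library could be left out. Of 36 alternative values of the members' log2 ratios, 0 changed sign where the ratio was past 2-fold, and 2 fell within 2-fold, both with a pseudocount of 1 RPKM (LACS in +NO3- against -N, at -0.96, and KCS in +NO3- + cPTIO against +NO3-, at 0.68). Changes of over 1.5 times (0.25 for remaining shares) count as moved. With a pseudocount of 1 the ratios of FATB moved to -1.44 (+NO3- against -N) and 1.95 (+NO3- + cPTIO against +NO3-), and the nitrate ratio of KCS to -1.26. These genes have levels near the pseudocount. A pseudocount of 0.1 and both rescalings moved none of the members' values.

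The counts of all genes past 2-fold depended on the minimum. For +NO3- against -N, 1657 became 699 at a minimum of 5, 4303 at 0.1, 7536 without one, 844 with a pseudocount of 1 and 3656 at 1.5-fold. For +NO3- + cPTIO against +NO3-, 4271 became 2426, 7490, 10621, 2797 and 7951, and against -N, 3737 became 2096, 6872, 9964, 2482 and 7338, in the same order. The counts of lipid genes past 2-fold in either direction in the cPTIO comparisons changed by at most 1.5 times. Against +NO3-, 9 became 6, both at a minimum of 5 and with a pseudocount of 1, which is at that bound, and 11 at 1.5-fold. Against -N, 8 became 7, 7 and 11 in the same order. The absence of values per library limits every ratio.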

Other observations

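To the left of KCS, at 66.1 kb and 48.6 kb on chromosome 4, lie Zm00001d048949 and Zm00001d048950, singled out after their values were seen. Zm00001d048949 had an RPKM of 4.05 in -N, 7.46 in +NO3- and 73.9 in +NO3- + cPTIO, and Zm00001d048950 had 1.33, 4.14 and 35.1. With cPTIO they stood 9.90-fold and 8.47-fold above nitrate alone, at percentiles 99.0 and 98.9 of all genes tested. Their spans of 868 and 887 bp are alike, and the file gives no name for either, so whether they share reads was not tested. KCS itself stood below its -N level under cPTIO, whereas these genes stood 18.2-fold and 26.3-fold above theirs.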
